A study of Mus musculus with 8 samples.

Results

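The 10 imprinted growth genes, Igf2, H19, Dlk1, Meg3, Mest, Peg3, Plagl1, Cdkn1c, Grb10 and Ndn, were followed in first molars of mice with and without a functional Wdr72 gene. They were chosen by name, as imprinted genes whose messages are known to decline together after birth. They were proposed with results of this wild-type against knockout contrast already known, so their differences between genotypes are a description. No p-value is printed for any of the 10, although those under a threshold are counted and named. All 10 were found among the 54532 genes of the deposited count table, and all 10 were among the 16205 genes that passed the filter on low counts. The 4 wild-type libraries (WT 2, 3, 4 and 5) came from C57BL/6 mice, and the 4 knockout libraries (KO 1, 3, 4 and 5) from wdr72-/- mice of a colony bought from the UC Davis Mouse Biology Center, with the same strain label. The age label is P12 for all 8 libraries and the dissection text gives P13, so no earlier or later age was available and the decline after birth itself could not be examined. The pulp had been taken out and the rest of the molar was homogenised, and the labels do not say whether a library came from 1 pup or a pool, so the spread between libraries may in part be technical.

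Genomic imprinting means that a gene is read mainly from the copy inherited from the mother or from the copy inherited from the father, under the control of DNA methylation set in the germ line. Many such genes govern growth before and shortly after birth: several paternally expressed ones promote it, as IGF2 does, and several maternally expressed ones restrain it, as CDKN1C and GRB10 do. Both groups carry the same strain label and the table sums the reads of both copies, so these counts show the level of a gene and not which parental copy it came from. In whole tissue, fewer cells of a type and less RNA per cell also cannot be told apart.

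Several of the genes are neighbours in imprinted clusters, with positions given here on GRCm38 as in the deposited table. Igf2 (chromosome 7, 142650766 to 142666816) and H19 (142575529 to 142578143) are 72.6 kb apart, and Cdkn1c (143458339 to 143461050) lies 792 kb from Igf2. Dlk1 (chromosome 12, 109452823 to 109463336) and Meg3 (109541001 to 109571726) are 77.7 kb apart. Ndn (62346569 to 62350262) and Peg3 (6703892 to 6730431) are elsewhere on chromosome 7. Mest is on chromosome 6 (30723547 to 30748465), Plagl1 on chromosome 10 (13060504 to 13131694) and Grb10 on chromosome 11 (11930508 to 12038683). H19 and Meg3 are annotated as long non-coding RNAs, and the other 8 encode proteins.

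The stretch of 250 bases before the annotated start was taken from RefSeq promoters on GRCm38.p6, which held 15 starts for 8 of the genes. Cdkn1c and H19 had no entry. CG dinucleotides, the sites of DNA methylation, are in capitals in the first 3 sequences, which belong to genes whose level was higher in the knockout libraries. The median over all 32851 promoters was 6 CG. Mest (chr6:30737800-30738049, plus strand) had 14, Grb10 at its outer start (chr11:12037421-12037670, minus strand) had 40, more than 98.7% of all promoters, and Dlk1 (chr12:109452573-109452822, plus strand) had 8. Another start of Mest had 7 and the inner start of Grb10 had 8, so the contrast between these genes depends on the start shown.
Mest: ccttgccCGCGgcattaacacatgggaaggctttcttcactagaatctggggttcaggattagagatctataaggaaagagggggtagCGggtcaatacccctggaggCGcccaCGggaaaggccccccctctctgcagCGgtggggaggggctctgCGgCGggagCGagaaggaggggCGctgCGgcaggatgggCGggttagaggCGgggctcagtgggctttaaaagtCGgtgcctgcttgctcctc
Grb10: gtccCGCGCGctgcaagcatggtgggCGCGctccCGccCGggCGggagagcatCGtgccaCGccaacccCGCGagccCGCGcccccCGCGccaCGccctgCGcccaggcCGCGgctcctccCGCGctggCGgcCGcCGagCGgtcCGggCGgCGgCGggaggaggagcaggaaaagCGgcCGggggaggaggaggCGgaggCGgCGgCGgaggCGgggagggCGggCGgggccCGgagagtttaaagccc
Dlk1: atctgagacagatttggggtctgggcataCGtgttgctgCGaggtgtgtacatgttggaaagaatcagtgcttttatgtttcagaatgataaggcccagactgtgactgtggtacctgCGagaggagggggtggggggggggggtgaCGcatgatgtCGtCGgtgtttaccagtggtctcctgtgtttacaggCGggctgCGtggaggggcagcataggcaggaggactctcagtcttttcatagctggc
The sequence GGGGCCCC, reported to be bound by ZAC1, the zinc-finger product of Plagl1, reads the same on both strands and was in 0.889% of all promoters of this length. Among the 15 promoters of the imprinted growth genes it was in 1, that of Peg3 (chr7:6730420-6730669, minus strand), where it is in capitals. A match of these letters is a description and not a binding site.
Peg3: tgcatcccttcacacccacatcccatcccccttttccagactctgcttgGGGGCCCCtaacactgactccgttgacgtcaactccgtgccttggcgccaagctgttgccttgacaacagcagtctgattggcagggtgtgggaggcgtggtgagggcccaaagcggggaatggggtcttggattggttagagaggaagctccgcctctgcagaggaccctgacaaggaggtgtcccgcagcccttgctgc

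The 10 genes spanned a wide range of levels. Scaled to library size and to the gene lengths of the table (RPKM), H19 was at 256 ± 60.8 in WT and 249 ± 49.5 in KO (SD, n = 4 each), higher than 99.2% of all tested genes. Cdkn1c followed with 17.1 ± 1.12 RPKM in WT, then Grb10 with 12.97 ± 0.977, Peg3 with 10.45 ± 1.38 and Mest with 8.15 ± 1.19. Grb10 and Cdkn1c did not overlap in WT, Grb10 overlapped Peg3, and Peg3 overlapped Mest. Plagl1 (5.91 ± 1.01) overlapped Meg3 (5.17 ± 1.11), which overlapped Ndn (4.24 ± 0.553), in the WT libraries. Igf2 (0.844 ± 0.141) and Dlk1 (0.646 ± 0.109) overlapped each other and were the lowest, at the 21.9th and 20.7th percentile of tested genes. In KO, Mest at 13.9 ± 0.486 RPKM lay above Peg3 at 10.04 ± 2.50 without overlap. Meg3 (6.48 ± 2.16), Ndn (5.95 ± 2.07) and Plagl1 (5.16 ± 1.05) overlapped in KO, as did Dlk1 (1.10 ± 0.290) and Igf2 (1.03 ± 0.294).

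**Figure D1:**
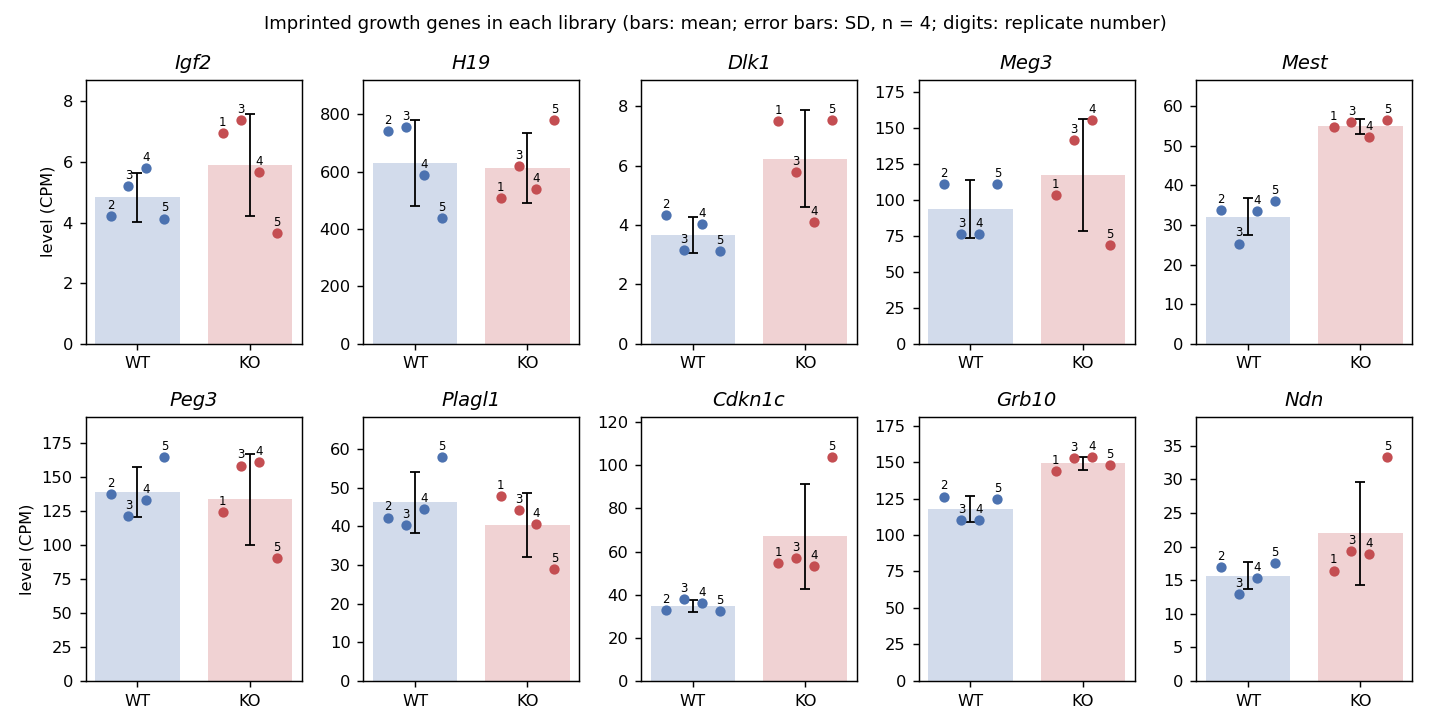
Level of each of the 10 genes in CPM (reads scaled to the library total, vertical axis, starting at 0) in the 4 WT and 4 KO libraries; bars are means, error bars SD, and each point is a library with its replicate number. Mest, Cdkn1c and Grb10 lie higher in every KO library than in every WT library, and the other 7 genes overlap.

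In all, 7 of the 10 genes had a higher fitted level in KO and 3 a lower one, and the median log2 fold change (KO minus WT) was 0.33, against 0.021 over all 16205 tested genes, of which 53.1% were above 0. Of the 10, 0 passed an adjusted p of 0.05 in edgeR's quasi-likelihood test, where 0.0309% of all tested genes passed, and 5 had an unadjusted p under 0.05 (Dlk1, Mest, Cdkn1c, Grb10 and Ndn, all higher), where 15.7% of all genes did. In 3 genes the 4 KO values lay above the 4 WT values, against 5.50% of all tested genes in that direction. With DESeq2, Mest, Cdkn1c and Grb10 passed an adjusted p of 0.05, as did 2.86% of all genes, and limma voom called the same 3, with 6.62% of all genes. The genes were named with this contrast known, so nothing is read from these counts.

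Cdkn1c encodes the cyclin-dependent kinase inhibitor p57, which arrests the cell cycle, and had the largest difference of the 10 with all libraries; without KO 5, with limma voom or after offsets for GC content and gene length that of Mest was larger. It was at 32.8, 38.04, 36.03 and 32.6 CPM in WT 2, 3, 4 and 5 and at 54.6, 56.99, 53.2 and 104 CPM in KO 1, 3, 4 and 5. The groups did not overlap, and KO 5 stood far above the other 3 KO libraries. The log2 fold change was 0.94 (SE 0.20), and without KO 5 it was 0.66 (SE 0.087). Cdkn1c was also the gene richest in G and C, with 59.4% in its longest transcript, above 94.4% of tested genes, and KO 5 was the library whose deviations across genes rose most with GC content (Spearman's rho 0.37 across 16194 genes, which are not independent). With these offsets (a smooth fit of each library's deviations, added after the data were seen) the log2 fold change was 0.64 (SE 0.11), and with these offsets and without KO 5 it was 0.55 (SE 0.094).

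Grb10 encodes an adaptor that binds the activated insulin and IGF1 receptors and restrains growth. It was at 126, 110.1, 110.3 and 125 CPM in the WT libraries in the order above and at 144, 153, 153 and 148 CPM in the KO libraries. The groups did not overlap, although the difference was small, with a log2 fold change of 0.34 (SE 0.10). Its values within a genotype lay close together: the SD within groups was 0.083 on the log2 scale, at the 3.14th percentile of tested genes. The log2 fold change was 0.35 without KO 5 and 0.42 after GC and length offsets.

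Mest, the mesoderm-specific transcript, encodes a membrane protein of the hydrolase family that is abundant in fetal mesoderm and growing fat. It was at 33.8, 25.3, 33.6 and 35.9 CPM in WT and at 54.9, 56.1, 52.3 and 56.6 CPM in KO. The KO libraries were nearly alike and all lay above the highest WT library, with a log2 fold change of 0.77 (SE 0.12), 0.76 when KO 5 was left out and 0.80 after GC and length offsets. Its 3' end overlaps 912 bases of Copg2 on the other strand, which had 177% as many reads, so the count of Mest is uncertain without a known strand setting. Copg2, a coatomer subunit, went the other way, with 83.04 ± 4.25 CPM in WT against 71.6 ± 7.32 in KO (a log2 fold change of -0.21, SE 0.11, adjusted p = 0.34 in edgeR).

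Igf2 and Dlk1 are the extracellular signals of the set: IGF2 is the fetal growth factor that acts through the IGF1 receptor, and DLK1 is a membrane protein related to Notch ligands that holds precursor cells, such as preadipocytes, undifferentiated. Both were among the lowest expressed, with 70 to 161 reads of Igf2 and 55 to 145 reads of Dlk1 in a library. Igf2 was at 4.21, 5.20, 5.79 and 4.13 CPM in WT and at 6.95, 7.39, 5.66 and 3.64 CPM in KO. KO 1 and KO 3 were above all WT libraries, KO 5 was below all of them, and the log2 fold change was 0.29 (SE 0.23), 0.16 without KO 3 or after GC and length offsets, and 0.46 (SE 0.18) without KO 5. Igf2os, on the other strand, overlaps Igf2 and had 22.5% as many reads. Dlk1 was at 4.32, 3.15, 4.03 and 3.11 CPM in WT and at 7.49, 5.78, 4.10 and 7.54 CPM in KO. Here KO 4 alone lay within the WT range, and the log2 fold change was 0.77 (SE 0.22), 0.66 without KO 5 and 0.43 without KO 1 and KO 5.

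Plagl1 and Peg3 encode zinc-finger proteins that bind DNA, and neither was higher in the knockout. Plagl1 was at 42.2, 40.3, 44.4 and 57.8 CPM in WT and at 47.7, 44.2, 40.5 and 28.9 CPM in KO. The groups overlapped, and the log2 fold change was -0.19 (SE 0.16), -0.065 without KO 5 and -0.068 without WT 5. Peg3 was at 138, 121, 133 and 165 CPM in WT and at 125, 159, 161 and 90.6 CPM in KO. KO 5 again had the lowest value, the log2 fold change was -0.058 (SE 0.18), and it was above 0 in 6 of 19 alternatives: without KO 5 (0.089), without WT 5 (0.033), without KO 1 and KO 5 (0.20), with limma voom and quality weights (0.16), and after GC and length offsets with KO 5 (0.073) or without it (0.11).

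Ndn encodes necdin, a MAGE-family protein that restrains proliferation in neurons and other differentiating cells. It was at 16.9, 12.9, 15.3 and 17.5 CPM in WT and at 16.4, 19.4, 18.8 and 33.3 CPM in KO. The groups overlapped through KO 1, and KO 5 was far above the rest. The log2 fold change was 0.49 (SE 0.21), but 0.22 (SE 0.13) without KO 5.

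H19 and Meg3 are non-coding RNAs of the Igf2 and Dlk1 loci, each read from the maternal copy where its partner is read from the paternal copy. H19 was at 742, 755, 587 and 438 CPM in WT and at 509, 621, 539 and 780 CPM in KO. The groups overlapped over most of their range, with a log2 fold change of -0.042 (SE 0.20), which was above 0 in 5 of 19 alternatives, those without WT 2, WT 3, KO 1 or KO 4 and that with a replicate block, and which was -0.25 after GC and length offsets. Meg3 was at 111, 76.2, 76.0 and 111 CPM in WT and at 103, 141, 155 and 68.5 CPM in KO. KO 3 and KO 4 were above all WT libraries and KO 5 was below them all, with a log2 fold change of 0.33 (SE 0.23), which was 0.51 (SE 0.19) without KO 5 and 0.16 without KO 4.

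Within each locus the maternally expressed RNA was far above its partner. Per length, H19 was 308 ± 82.3 times as abundant as Igf2 in WT and 272 ± 153 times in KO, with KO 5 at 499 and the other KO libraries at 170 to 222. Meg3 was 8.16 ± 2.21 times as abundant as Dlk1 in WT and 6.67 ± 4.004 times in KO, from 2.84 in KO 5 to 11.9 in KO 4. The genotypes overlapped in both ratios. By parental origin, 4 of the 6 paternally expressed genes (Igf2, Dlk1, Mest, Ndn) had a higher fitted level in KO, with a median of 0.39. So did 3 of the 4 maternally expressed ones (Meg3, Cdkn1c, Grb10), with a median of 0.33. Both parental classes held fitted values on both sides of 0. In the maternal class the value below 0 was that of H19, -0.042 (SE 0.20), which kept its sign in only 14 of 19 alternatives.

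**Figure D2:**
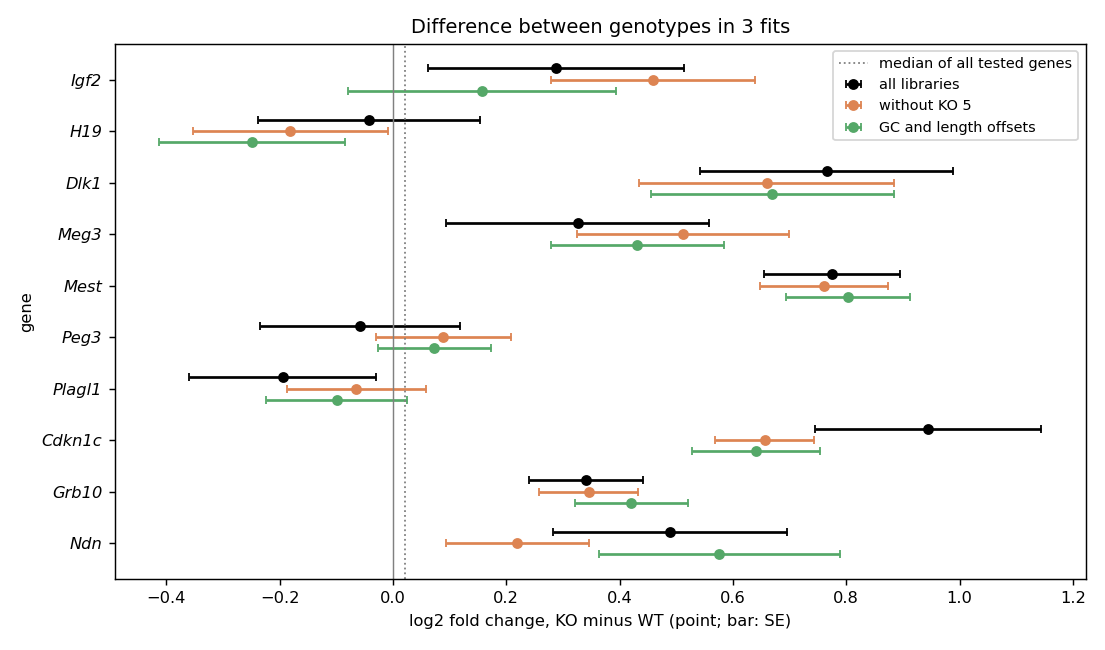
Log2 fold change (KO minus WT, horizontal axis; bars are SE) of the 10 genes with all libraries, without KO 5, and with offsets for GC content and gene length. Mest stays near 0.77, and Grb10 moves from 0.34 to 0.42 with the offsets. Without KO 5, Cdkn1c moves from 0.94 to 0.66 and Ndn from 0.49 to 0.22.

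Within a genotype the genes did not move as a block, and KO 5 split them. Measured against the KO mean in log2 CPM, KO 5 was highest for Cdkn1c (0.69), Ndn (0.65), H19 (0.37), Dlk1 (0.31) and Mest (0.042), and lowest for Meg3 (-0.70), Igf2 (-0.63), Peg3 (-0.52) and Plagl1 (-0.45). Cdkn1c, H19, Ndn and Mest have gene lengths of 2039 to 3945 bases, and Plagl1, Peg3 and Meg3 of 7819 to 18089 bases. Length did not separate the others: Dlk1 (5657 bases) and Igf2 (5723 bases) lay on opposite sides, and Grb10 (9089 bases) was at -0.014 in KO 5. Across all genes KO 5 also had the most negative relation of its deviations with gene length (Spearman's rho -0.44, against -0.13 to 0.35 in the other 7 libraries), and it was the library least like the others, with a mean correlation of 0.965 against 0.980 to 0.983. After the GC and length offsets the deviation in KO 5 was 0.26 for Cdkn1c, 0.045 for H19, -0.28 for Meg3, -0.12 for Peg3 and -0.20 for Plagl1, but still 0.71 for Ndn, 0.29 for Dlk1 and -0.71 for Igf2. The offsets moved Grb10 farther from 0 in KO 5, from -0.014 to 0.24, and Mest from 0.042 to 0.085. In WT, WT 5 was highest for 5 of the 10 genes and lowest for 4, and WT 3 was lowest for 5. The SD within groups ran from 0.083 (Grb10) and 0.16 (Mest) to 0.44 (Meg3) on the log2 scale, with a median of 0.25 over all tested genes.

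**Figure D3:**
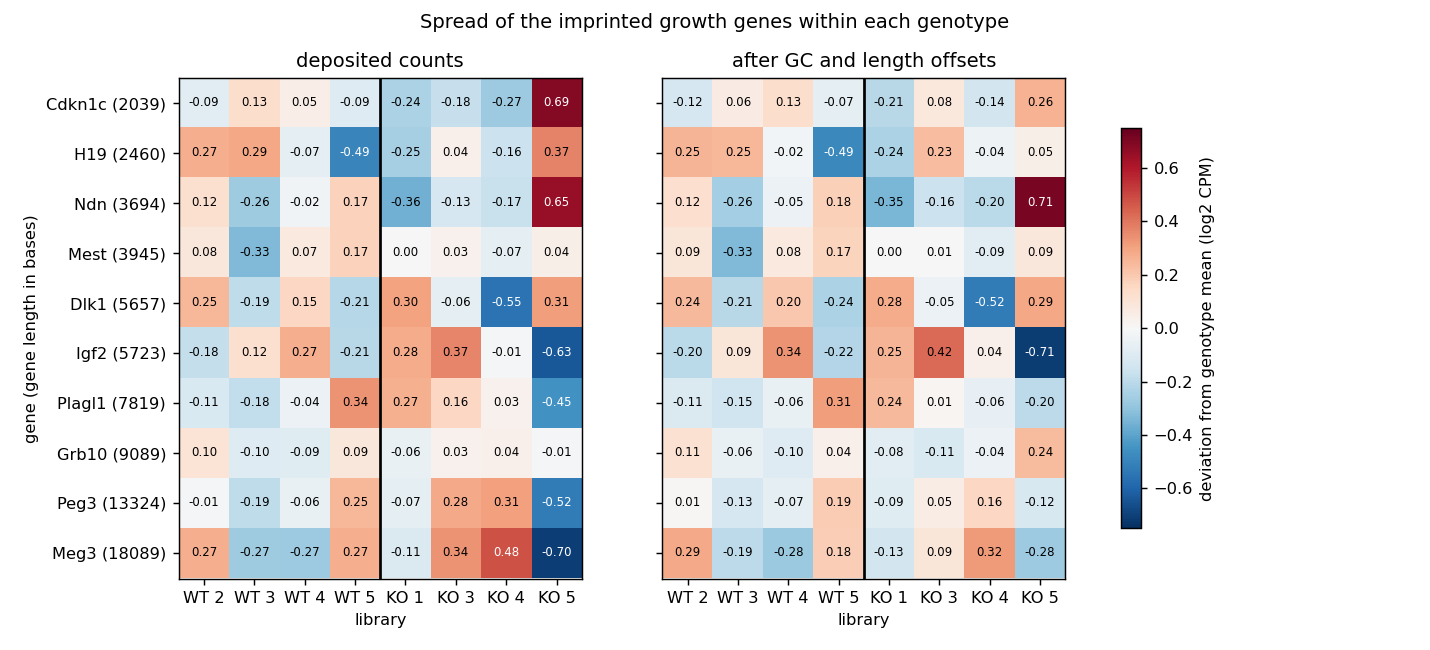
Deviation of each library from the mean of its genotype in log2 CPM (colour and printed value) for the 10 genes, ordered by gene length from top to bottom, from the deposited counts (left) and after offsets for GC content and gene length (right). In the left panel KO 5 is high for the short genes Cdkn1c and Ndn and low for the long genes Peg3 and Meg3, while Dlk1 and Igf2, close in length, differ; in the right panel Meg3 in KO 5 is at -0.28 and Ndn at 0.71.

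By the mean centred profile of the 10 genes over the 8 libraries, the nearest protein-coding genes outside the set, by root mean square difference in log2 CPM, were Sept8 (0.049), Trpm4 (0.055), Llgl1 (0.064), Ank (0.064) and Lrrc15 (0.070). Grb10 was the gene of the set closest to that profile (0.054) and Cdkn1c the farthest (0.41). The profile ran from -0.27 to -0.099 in the WT libraries and from 0.13 to 0.26 in the KO libraries, and Grb10 is part of it. A gene with little spread and a similar difference between genotypes is therefore near it by construction. The likeness of these genes is a description of 8 libraries, and it used the same values as the mean profile.

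Other imprinted genes were looked at from lists of 23 paternally and 20 maternally expressed genes. Of these 43, 37 were tested, 26 had a higher and 11 a lower fitted level in KO, and 0 passed an adjusted p of 0.05 in edgeR (at an unadjusted p under 0.05 there were 8 higher and 5 lower, against 8.70% and 6.98% of all tested genes). Median log2 fold changes were 0.22 among the 20 tested paternally expressed genes and 0.24 among the 17 maternally expressed ones, against 0.021 over all genes. The paternal median was 0.029 with a minimum count of 50, where the median of all genes was 0.020, and the maternal one was 0.11 with GC and length offsets and without KO 5. Slc38a4, an amino acid transporter, had 3.95 ± 1.04 CPM in WT against 6.96 ± 1.13 in KO (a log2 fold change of 0.82, SE 0.21, adjusted p = 0.13 in edgeR). Peg10, a gene derived from a retrotransposon that the placenta needs, was at 3.18 ± 0.742 and 5.41 ± 1.13 CPM (log2 fold change 0.77, adjusted p = 0.17 in edgeR), with no overlap between the groups. Ube3a, a ubiquitin ligase, was at 83.4 ± 6.45 and 60.2 ± 15.1 CPM (log2 fold change -0.47, adjusted p = 0.22 in edgeR), and Tssc4, which lies between the Igf2 and Cdkn1c loci, at 24.996 ± 2.56 and 33.9 ± 8.38 CPM (log2 fold change 0.44).

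Near the genes of the set, Kcnq1ot1 was lower in KO, and it is named here after its values were seen. A lower level was not particular to it. Of the 20 tested paternally expressed genes listed above, 13 were higher and 7 were lower. The lower ones also held Airn (log2 fold change -0.63), Snhg14 (-0.52) and Snrpn (-0.47). Kcnq1ot1 is the long non-coding RNA read from the paternal copy that silences Cdkn1c on the same chromosome. It was at 12.5, 11.9, 14.1 and 13.8 CPM in WT and at 6.40, 10.4, 11.3 and 5.72 CPM in KO, so the groups did not overlap, in the direction opposite to Cdkn1c (log2 fold change -0.62, SE 0.21, adjusted p = 0.21 in edgeR). Its annotated length is 93092 bases with 40.3% G and C, it lies inside Kcnq1 on the other strand, which had 14.3% as many reads, and its lowest values were in KO 5 and KO 1, the KO libraries whose deviations rose most with GC content across genes (Spearman 0.37 and 0.31), whose part in the difference was not tested. At the Dlk1 and Meg3 locus, the non-coding RNA Rian was at 64.8 ± 7.11 and 76.4 ± 7.22 CPM and Mirg at 2.33 ± 0.712 and 3.04 ± 0.860 CPM, with log2 fold changes of 0.24 and 0.39, while Rtl1 had 75 reads in all 8 libraries and was not tested. Dio3, of the same locus, was at 5.32 ± 1.14 and 7.38 ± 1.31 CPM (log2 fold change 0.47, adjusted p = 0.28 in edgeR). The paternally expressed neighbours of Ndn went both ways. Mkrn3 (log2 fold change 0.32) and Peg12 (0.37) were higher, and Snrpn (-0.47) and Snhg14 (-0.52) were lower. Magel2 had 31 reads in all and was not tested.

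The IGF axis, the pathway on which Igf2 and Grb10 act, had 16 tested genes of 17, of which 10 were higher and 6 lower, with a median log2 fold change of 0.32. By edgeR 0 passed an adjusted p of 0.05, and at an unadjusted p under 0.05, 5 were higher and 1 was lower (8.7% and 6.98% of all tested genes). Its median was 0.11 without KO 5 and 0.070 after GC and length offsets. Igfbp5, a binding protein that holds IGFs in the matrix, had 647 ± 73.6 CPM in WT against 1060 ± 106 in KO (log2 fold change 0.71, SE 0.14, adjusted p = 0.080 in edgeR). Igfbp4 was at 201 ± 11.4 and 380.0 ± 158 CPM (log2 fold change 0.92, adjusted p = 0.12 in edgeR). Igf1 was at 137 ± 15.3 and 169 ± 9.42 CPM, without overlap (log2 fold change 0.31, adjusted p = 0.25 in edgeR), and Igf2r, the imprinted receptor that clears IGF2, at 119.99 ± 14.9 and 116 ± 13.5 CPM (log2 fold change -0.051).

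Of 14 non-imprinted genes of early growth, 11 were tested, with 7 higher, 4 lower and a median of 0.12 (0.068 without KO 3, 0.19 without KO 4). By edgeR 0 passed an adjusted p of 0.05, and 2 were higher at an unadjusted p of 0.05 (8.7% of all tested genes were). The 2 were the related growth factors Mdk, at 60.9 ± 10.2 and 117 ± 54.5 CPM (log2 fold change 0.94, adjusted p = 0.15 in edgeR), and Ptn, at 129 ± 11.9 and 176 ± 27.03 CPM (log2 fold change 0.44, adjusted p = 0.17 in edgeR). Lin28a, Lin28b and Igf2bp1, genes of fetal cells, had 52, 12 and 27 reads in all 8 libraries and were not tested.

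The non-imprinted relatives of the set were measured as a comparison of levels. Of 9, 4 were higher and 5 lower, with a median of -0.028, and 0 passed an adjusted p of 0.05 in edgeR. At an unadjusted p under 0.05, 3 were higher and 1 was lower, against 8.7% and 6.98% of all tested genes. The median was 0.10 with the GC and length offsets, and ran from -0.099 without WT 2 to 0.015 without KO 1. The other kinase inhibitors of the family were at 144 ± 11.4 (Cdkn1a) and 24.6 ± 4.26 RPKM (Cdkn1b) in WT and 147 ± 31.3 and 24.1 ± 2.69 RPKM in KO, beside Cdkn1c at 17.1 and 32.9 RPKM. Their log2 fold changes were 0.031 (SE 0.16) and -0.028 (SE 0.14), against 0.94 for Cdkn1c, and a difference between them was not tested. Maged2, a MAGE-family relative of Ndn, had a log2 fold change of 0.51 (SE 0.12, adjusted p = 0.12 in edgeR), and Plag1, the relative of Plagl1, of -0.74 (SE 0.27, adjusted p = 0.24 in edgeR).

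Cell cycle genes, which p57 and necdin act on, showed little difference. All 14 were tested, 13 were higher and 1 lower, the median was 0.099 (0.016 without WT 5, 0.17 without KO 4), and 0 had even an unadjusted p under 0.05 in edgeR. Mki67 had 73.4 ± 14.7 CPM in WT against 59.4 ± 13.7 in KO (log2 fold change -0.31), and Plk1 had 5.68 ± 1.12 and 7.26 ± 1.97 CPM (log2 fold change 0.35). The summed level of the list lay at 290.2 to 397 CPM in WT and 344 to 411 CPM in KO.

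Imprinted growth genes are active in mesenchymal cells, and most markers of those cells had higher levels in KO too. Of 22 mesenchyme and fibroblast markers 20 were higher, with a median log2 fold change of 0.48, 0 past an adjusted p of 0.05 in edgeR and 11 higher at an unadjusted p of 0.05. Col6a2 and Col6a1, chains of collagen VI, had log2 fold changes of 0.89 and 0.83. The summed level of the list was 32993 to 36029 CPM in WT 2, 3 and 4 and 62409 CPM in WT 5. In KO it was 48172 to 70455 CPM, so the genotypes overlapped, with all 22 markers past the filter. Most of the sum was Col1a1 (means of 20861 CPM in WT and 29915 in KO) and Col1a2 (14532 and 20420). Bone and cartilage markers (12 tested, 11 higher, median 0.43, sums of 3131 to 3608 and 3914 to 6492 CPM) and nerve and Schwann cell markers (10 tested, 8 higher, median 0.40, sums of 140 to 163 and 185 to 234 CPM) were also higher. At an unadjusted p of 0.05, 8 and 5 genes were higher, against 8.7% of all tested genes, and 0 passed an adjusted p of 0.05 in edgeR. In these lists Col2a1 and Col9a2 had log2 fold changes of 1.14 and 0.94, and Tubb3 of 0.62. Oral keratinocyte markers went the other way: all 11 tested were lower, with a median of -1.32 and sums of 849.5 to 1486 CPM in WT and 729 to 892 CPM in KO, and 1, Krt1, passed an adjusted p of 0.05 in edgeR (log2 fold change -2.64, adjusted p = 0.040). Krt1 did not pass with the replicate block or when WT 2, WT 3, KO 1, KO 3, KO 4 or KO 5 was left out. The part of these cells in the levels of the imprinted genes was not tested.

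The other 4 marker lists had medians from 0.021 to 0.35, and these moved when libraries were left out. The highest, that of the adipocyte markers, was above the median of the imprinted growth genes (0.33), and its sums did not overlap between genotypes. Enamel epithelium markers, which define the labelled cell type, were present at 67801 to 110454 CPM in sum in WT and 72131 to 102465 CPM in KO (13 tested, 7 higher, median 0.021, from -0.023 without WT 5 to 0.094 without KO 1), with Odaph at 1.04 and Epcam at 0.53. Skeletal muscle, in which H19 and Igf2 are abundant early in life, had 8 of 12 markers tested, 7 of them higher, with a median of 0.24 (0.079 without WT 5, 0.44 without WT 4) and sums of 59.3 to 105.0 CPM in WT and 51.9 to 105.2 CPM in KO. Acta1 and Tnnt3 had log2 fold changes of 0.53 and 0.48, and Myh3, Myog, Myod1 and Pax7 had 6, 37, 12 and 10 reads in all 8 libraries. Adipocyte markers (5 of 8 tested, 4 higher, median 0.35, 0.19 without WT 3 and 0.099 without KO 1 and KO 5) held Lpl at 0.46 and Plin4 at -1.03, with sums of 42.6 to 50.3 and 51.2 to 63.7 CPM, and Adipoq, Plin1 and Cidec had 47, 6 and 6 reads. Endothelial and mural markers (10 tested, 6 higher, median 0.057, from -0.015 without KO 1 to 0.11 without KO 4) held Plvap at 0.48 and Rgs5 at -0.35, with sums of 797 to 849.9 and 767 to 872 CPM. In these 4 lists 0 genes passed an adjusted p of 0.05 in edgeR, with 2, 0, 1 and 5 at an unadjusted p under 0.05, against 15.7% of all tested genes in either direction. Tnnt3, Plvap and Plin4 overlap other genes with 33.7%, 33.8% and 13489% as many reads, so their counts are uncertain.

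**Figure D4:**
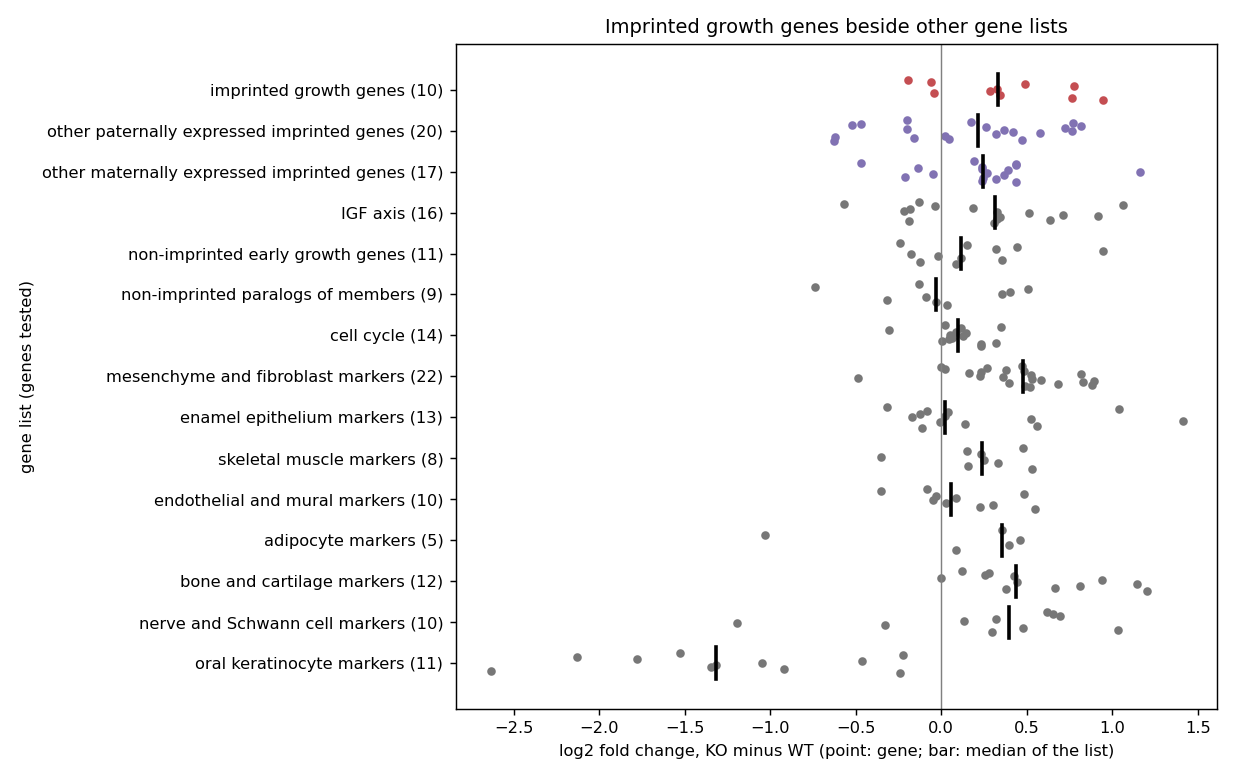
Log2 fold change (KO minus WT, horizontal axis) of every tested gene (points) of the imprinted growth genes and of 14 other lists, with the median of each list as a black bar. The imprinted growth genes have a median of 0.33, mesenchyme and fibroblast markers of 0.48, and oral keratinocyte markers of -1.32.

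Library depth was 17084475 to 21887462 counted reads. Xist, an RNA of female cells, was at 803, 839, 251 and 658 CPM in WT 2, 3, 4 and 5. In KO 1, 3, 4 and 5 Xist was at 249, 191, 356 and 177 CPM, so the share of female tissue may differ between libraries and genotypes. Sex was not in the fit, and its part in the differences was not tested. Wdr72 was at 173 to 327 CPM in the WT libraries and 15.8 to 102 CPM in the KO libraries, highest in KO 1. Its log2 fold change was -2.43 (SE 0.47, adjusted p = 0.080 in edgeR), so even the disrupted gene did not pass the threshold. How the allele was disrupted is not described in the labels. The relation of a library's deviations with GC content lay between -0.42 and -0.16 in WT and between -0.051 and 0.37 in KO (Spearman's rho across genes), so it differed between the genotypes. The offsets above were a smooth fit meant to reduce it, and the relation left after them was not measured. They would also take out any difference between genotypes that follows GC content or gene length.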

How the data were processed

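RNA of 4 WT and 4 KO first molar libraries was enriched by polyA capture, per the labels' protocols. The authors deposited raw read counts per Ensembl gene with gene lengths; per the submitters' processing notes CASAVA and mm39 were named, and no aligner, counter or strand setting is named in the sources used here. The coordinates match GRCm38: of 54409 gene IDs also in GENCODE M21, 98.8% had the same start. Genes with few reads were left out by filterByExpr (minimum count 10, total 15). KO was compared with WT in edgeR 4.0.16 (R 4.3.3; TMM, robust quasi-likelihood test, two-sided, no covariate, Benjamini-Hochberg over 16205 genes, threshold 0.05); SE is the log2 fold change over the root of F. The biological coefficient of variation was 17.8%. CPM and log2 CPM (prior count 2) use TMM-scaled totals. GC content is that of the longest GENCODE transcript. The offsets were lowess smooths of each library's deviation on GC content and then length, added after the data were seen. The test was checked on simulated counts with changes larger than those of the 10 genes and the same relative spread in every gene. They held no effect of GC content or length, so differences of the size reported here were not checked.

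The genes, the 14 other lists and the tests were chosen with earlier results of these data known. Named genes were the 10 genes, Wdr72, genes of each list past the threshold or the 2 with the smallest p, and the 5 nearest in profile. Paralogs could also be named for their level beside a gene of the set, as Cdkn1a and Cdkn1b were. Kcnq1ot1, Airn, Snhg14, Snrpn, Rian, Mirg, Dio3, Mkrn3, Peg12, Copg2, Igf1, Igf2r, Igf2os and Xist were chosen after their values were seen. Alternatives were other scalings, DESeq2 1.42.0, limma 3.58.1 (voom), other filters, a replicate block and libraries left out.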

Additional observations from a re-analysis of the deposited data

Results flagged for a closer look

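Cdkn1c in KO 5, at 104 CPM, lay apart from the other 3 KO libraries at 53.2 to 56.99 CPM: its gap to the nearest was 0.925 of the range of the group, above Dixon's 95% critical value for a group of 4. The 10 genes in 2 genotypes gave 20 groups, and chance flags about 1 in 20 groups. Its difference between genotypes with that library left out, and after GC and length offsets, stands in the report.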

How the results depend on the processing

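The number of changed genes over all genes was 5, and it was 2 with library totals, 464 with DESeq2, 1073 with limma voom, 241 with no low-count filter, 1 with the replicate block, 11 without KO 1 and KO 5, 25 with the GC and length offsets and 9 with these offsets and without KO 5; leaving out 1 library gave 0 (without WT 2, WT 3, KO 3 or KO 4) to 55 (without KO 5), and 16 without WT 4. Of the genes of the other 14 lists 1 passed, and 34 did with DESeq2, 48 with limma voom, 19 with no low-count filter, 0 with the replicate block, 2 without KO 1 and KO 5, 7 with the offsets, 2 with the offsets without KO 5, and 0 to 7 with 1 library left out. The median log2 fold change of the 10 genes was 0.33, and it was 0.41 with the replicate block, 0.43 with the offsets and 0.27 (without KO 3) to 0.40 (without KO 5) with 1 library left out. Under all 19 alternatives 7 or 8 of the 10 were higher in KO, where 53.1% of all tested genes were in the main fit. At an unadjusted p under 0.05 there were 4 to 7 of the 10, and the number over all genes moved too. It was 1088 of 16205 with the replicate block (5 of the 10) and 3934 of 16205 with limma voom (7 of the 10). Nothing is read from these counts. Igf2, Dlk1, Meg3, Mest, Plagl1, Cdkn1c, Grb10 and Ndn kept their direction in 19 of 19, H19 in 14 and Peg3 in 13. List medians kept their sign in 12 of 19 for enamel epithelium, 16 for the non-imprinted paralogs, 17 for cell cycle, 18 for endothelial and mural cells, and 19 for the other 10 lists. Dlk1 ran from 0.43 to 0.92, Mest from 0.68 to 0.86, Cdkn1c from 0.55 to 1.04 and Grb10 from 0.29 to 0.42. Same-numbered libraries did not deviate together (correlations of -0.14, -0.092 and -0.12 for numbers 3, 4 and 5). Differently numbered ones ran from -0.24 to 0.27, so these values cannot exclude a pairing. WT 2 and KO 1 have no partner of the same number, and the main fit has no block. Dlk1 and Igf2 had the fewest reads of the 10 genes, 55 to 161 a library, which limits their counting precision.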
